A study of Mus musculus with 6 samples.

Results

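The cells described here were macrophages of the injured rotator cuff enthesis that carried RNA of complement component C1q together with RNA of the major histocompatibility complex class II (MHC-II). They were chosen by their own counts, as barcodes with at least 1000 unique molecular identifiers (UMIs), at least 200 genes and at most 10% mitochondrial UMIs that held at least 10 UMIs of C1qa, C1qb and C1qc together and at least 10 UMIs of H2-Aa, H2-Ab1 and H2-Eb1 together. Barcodes with any UMI of Cd79a, Flt3, Mki67 or Top2a were left out, as were those with 1% or more of their UMIs in Col1a1, Col1a2 and Col3a1 or 2% or more in S100a8 and S100a9. Of 85339 barcodes, 9692 passed the C1q minimum, 2850 of these also passed the MHC-II minimum, and 2120 remained after the exclusions. They are called MHC-II C1q macrophages below. Because C1q and MHC-II RNA chose the cells, the levels of these 6 genes are a description of the cells and carry no test.

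Single-cell RNA was measured with droplet-based 3′ chemistry in 6 libraries of the rotator cuff enthesis, the insertion of the tendon into bone, 7 days post injury (dpi). All mice had the same injury and repair of the supraspinatus tendon, at an age of 12 to 14 weeks by the study's methods, and 3 libraries came from wild-type C57BL/6 mice and 3 from Nlrp3-/- mice, which lack the gene of the inflammasome sensor NLRP3 in every cell. Entheses were pooled, the number of mice per library is not given, and the tests therefore measure the spread between libraries. The genotype field named Nlrp4 and Nlrp5 for Nlrp3-/- replicates 2 and 3, against their titles, and Nlrp3 RNA is given for each library below. By Xist and Y-linked RNA, also given below, sex was tied to genotype. So was the source of the mice, since the study's methods name different suppliers for wild-type and Nlrp3-/- mice.

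C1q is the recognition subunit of the classical complement pathway and binds immune complexes and dying cells, and tissue macrophages are its main source. MHC-II molecules are pairs of an alpha and a beta chain (such as H2-Aa with H2-Ab1) that carry peptides from the endosome to the surface for CD4+ T cells. Their invariant chain Cd74 guides them to the endosome, the H2-DM proteins exchange the peptide, and the coactivator Ciita, which is recruited by factors on the promoter, switches the whole set on. In injured tissue, both long-lived resident macrophages and macrophages newly made from monocytes can carry MHC-II.

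The promoters of 2 of the MHC-II genes that chose the cells are shown because the letters CTGATTGG, the Y box bound by NF-Y beside the RFX factors, stand in both of them close to the start of transcription. Each line holds the 150 bases before the start, 5′ to 3′ on the strand of the gene, from RefSeq on GRCm38.p6, with the Y box in capitals. The window of H2-Aa is chr17:34287824-34287973 on the minus strand, with the first base of the motif 51 bases before the start. The window of H2-Eb1 is chr17:34305717-34305866 on the plus strand, with the first base of the motif 62 bases before the start.
H2-Aa: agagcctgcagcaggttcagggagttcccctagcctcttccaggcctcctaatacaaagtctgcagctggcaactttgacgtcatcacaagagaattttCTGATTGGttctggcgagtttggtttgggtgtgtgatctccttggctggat
H2-Eb1: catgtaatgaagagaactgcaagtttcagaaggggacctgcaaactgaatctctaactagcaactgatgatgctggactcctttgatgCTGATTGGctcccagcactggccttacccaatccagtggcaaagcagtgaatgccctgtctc
Among 32851 RefSeq promoters of 300 bases (250 before and 50 after the start), 1346 (4.1%) held CTGATTGG or its reverse complement CCAATCAG. Of 20 genes looked up, the 3 MHC-II genes of the rule and the 17 of the presentation list, 14 had a promoter in the table and 3 of these held the motif, the third being H2-Oa. A match describes these letters and not a bound site.

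In the MHC-II C1q macrophages, each of the 6 genes of the rule was present in every library at high levels, given as CPM, the UMIs of a gene per 1000000 UMIs of the cells' summed counts. H2-Aa ranged from 4061 to 6290.4 CPM over the 6 libraries (median 4894). H2-Ab1 ranged from 3392 to 5016 CPM (median 4557), and H2-Eb1 from 4787 to 6904 CPM (median 5246). C1qa ranged from 3831 to 4451 CPM, C1qb from 3870.0 to 5243 CPM and C1qc from 1929 to 2693 CPM, so the libraries differed less in C1qa than in the MHC-II genes. Cd74 is a marker of the cells that the rule did not use, and its level lay between 7963 and 13426 CPM (median 10013). The cells carried the general macrophage genes Csf1r (the receptor of the growth factor CSF1), Adgre1 (F4/80) and Mertk (a receptor for dying cells) at means of 356, 278 and 54.3 CPM.

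Several markers of other cell types were low or at 0 in these cells. The dendritic cell marker Zbtb46 reached no more than 2.49 CPM in any library, Xcr1, Clec9a and Itgae had means of 0.610, 0.886 and 0.162 CPM, and the summed dendritic list lay between 23.7 and 59.7 CPM over the libraries. S100a8, S100a9 and the 3 collagen genes were limited by the rule. Of the neutrophil and mesenchymal genes that it did not use, Lcn2, Retnlg, Csf3r and Ngp had means of 53.0, 42.3, 36.6 and 67.1 CPM, and Dcn, Lum and Pdgfra of 29.2, 17.4 and 1.75 CPM. The summed osteoclast list was not low, at 319.5 to 1085 CPM against 739.7 to 1337 CPM over all barcodes, with the highest value in Nlrp3-/- replicate 1. Of the B cell markers, Cd79a was 0 by the rule, Ms4a1 had a mean of 0.640 CPM, and Ighm and Cd79b had means of 55.6 and 26.5 CPM. The summed erythroid list ran from 7.86 to 55.6 CPM in 5 libraries, while in Nlrp3-/- replicate 3 the erythroid gene Hbb-bs alone was at 408 CPM. Lyve1, Cd163 and Vsig4, markers of some resident macrophages, had means of 0.459, 0.970 and 0.437 CPM. The summed resident macrophage list was not low, at 2659 to 4306 CPM against 792 to 1472 CPM over all barcodes. All 5 markers of the label were present in every library, which the selection largely fixed, since Cd74 alone of them was not used to choose the cells. The summed B cell list was 57.8 to 141 CPM, against 90.0 to 450.1 CPM over all barcodes, and the dendritic list, at the values above, overlapped its range of 47.8 to 63.5 CPM over all barcodes.

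The libraries held 9903 to 22048 barcodes, with a median depth of 2069 to 7421 UMIs. Each gave 156 to 565 MHC-II C1q macrophages with a median depth of 4875 to 7061 UMIs and 1766 to 2371.5 genes. Libraries shared 27 to 95 cell barcodes in each of the 15 pairs, and none of these was an MHC-II C1q macrophage in both. The median mitochondrial percentage of the cells was 1.35 ± 0.18 in wild type and 2.11 ± 0.39 in Nlrp3-/- (SD, n = 3 libraries each), without overlap (two-sided exact permutation test, p = 0.1, the smallest that 20 assignments allow). Just inside the MHC-II minimum (10 to 12 UMIs) there were 138 cells, and just outside it (7 to 9 UMIs) there were 138 more. On the C1q side, 112 cells lay just inside and 119 just outside; similar numbers thus lay on either side of both minimums.

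MHC-II C1q macrophages made up a small share of the barcodes, and the ranges of the genotypes overlapped. They were 2.71%, 3.64% and 1.58% of the barcodes in the 3 wild-type libraries and 1.33%, 1.79% and 4.12% in the 3 Nlrp3-/- libraries. The highest and the lowest share both belonged to Nlrp3-/- libraries. The lowest was that of Nlrp3-/- replicate 1, whose barcodes had a median of 2069 UMIs. Among barcodes of at least 2000 UMIs its share was 2.25%, and the lowest was then wild-type replicate 3 at 1.86%. The means were 2.64 ± 1.03% and 2.41 ± 1.49% (SD, n = 3 each), a log2 ratio of -0.13 (two-sided exact permutation test, p = 0.9, smallest possible 0.1). Among the barcodes that passed the C1q minimum and the other exclusions, they were 32.4%, 32.8% and 25.1% in wild type and 23.1%, 32.4% and 31.3% in Nlrp3-/-. These shares of the C1q macrophages averaged 30.1 ± 4.35% and 28.9 ± 5.10% (p = 0.6 by the same exact permutation test). The sign of the first ratio turned when wild-type replicate 2 was left out (0.17), and likewise for replicate 1 (0.16) and replicate 2 (0.04) of Nlrp3-/-. The ratio was -0.76 without Nlrp3-/- replicate 3 and -0.40 without wild-type replicate 3.

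**Figure D1:**
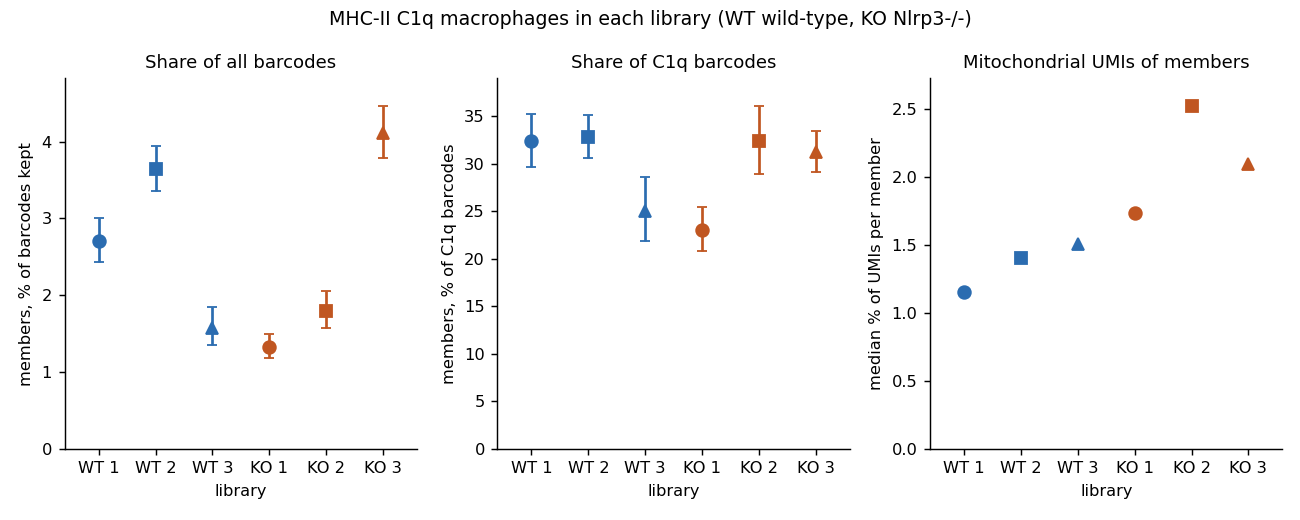
MHC-II C1q macrophages (members) in each library, WT for wild type and KO for Nlrp3-/-. From left to right, the axes show their share of all barcodes kept and their share of C1q barcodes, in percent with Wilson 95% intervals that cover counting error only, and the median percentage of mitochondrial UMIs per cell. The genotypes overlap in both shares and do not overlap in mitochondrial UMIs.

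The first class for comparison was that of the MHC-II-low C1q macrophages, 4401 barcodes that met the same rule with at most 2 UMIs of H2-Aa, H2-Ab1 and H2-Eb1 together. Their median depth was 4457 to 7824.5 UMIs per library. The comparison asks what else differed where MHC-II differed among C1q macrophages. Counts were summed per library and class, and edgeR's quasi-likelihood test with the library as a block and Benjamini-Hochberg adjustment was used, with the genes of the rule left out. Because both classes were cut from the counts of the same cells, a p-value here says how evenly a difference recurred over the 6 libraries. A gene near 0 in one class could pass the filter on low counts through the other class alone, here and in the comparisons that follow, and its fold change then depends on the prior count of the fit. At an adjusted p of 0.05, 2690 of 9954 genes were called (27.0%), of which 1476 were higher in the MHC-II C1q macrophages (14.8%) and 1214 lower (12.2%).

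The genes of peptide loading were higher in the MHC-II C1q macrophages, and Cd74 set the scale. Cd74 was at 85.0 to 211 CPM in the MHC-II-low cells, a log2 difference of 6.35 to the MHC-II C1q macrophages, which is a description because Cd74 marks the label. H2-DMb1, the beta chain of the peptide exchanger, was at no more than 30.5 CPM (median 25.5) in any library of MHC-II-low cells and 227 to 340.4 CPM (median 300.3) in MHC-II C1q macrophages. Its log2 difference was 3.56 ± 0.08 (SE, adjusted p 5.01e-15, edgeR), with no overlap between classes. H2-DMa, the alpha chain, went from 36.8 to 54.8 CPM up to 298 to 438 CPM, a log2 difference of 2.96 ± 0.08. Ciita had a mean of 0.880 CPM in the MHC-II-low cells and 33.1 CPM in the MHC-II C1q macrophages, which is a description because it passed the filter on low counts only through the class where it is high. The 3 costimulatory genes were also higher, Cd86 by 0.94, Cd40 by 1.09 and Cd80 by 0.62 on the log2 scale.

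Not all of the presentation list moved in that direction. Of its 17 genes, 14 were tested, 9 were higher with Cd74 and Ciita among them, 3 were lower and 2 were not called, with a median log2 difference of 0.72 against 0.00 over all genes. The thiol reductase Ifi30, which opens disulfide bonds of antigens, was higher (843 to 1476 CPM on average, log2 0.81), and the RFX subunit Rfxap was slightly higher (0.25, adjusted p 0.0188, edgeR, called under 8 of 14 alternative settings). The endosomal proteases were lower. Ctsl fell by 1.42 on the log2 scale, Lgmn by 0.48 and Ctss by 0.25. The RFX genes Rfx5 (0.50) and Rfxank (0.01) did not pass. H2-DMb2, H2-Oa and H2-Ob, which stood at means of 4.72, 2.48 and 2.61 CPM in the MHC-II C1q macrophages, were below the filter on low counts.

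**Figure D2:**
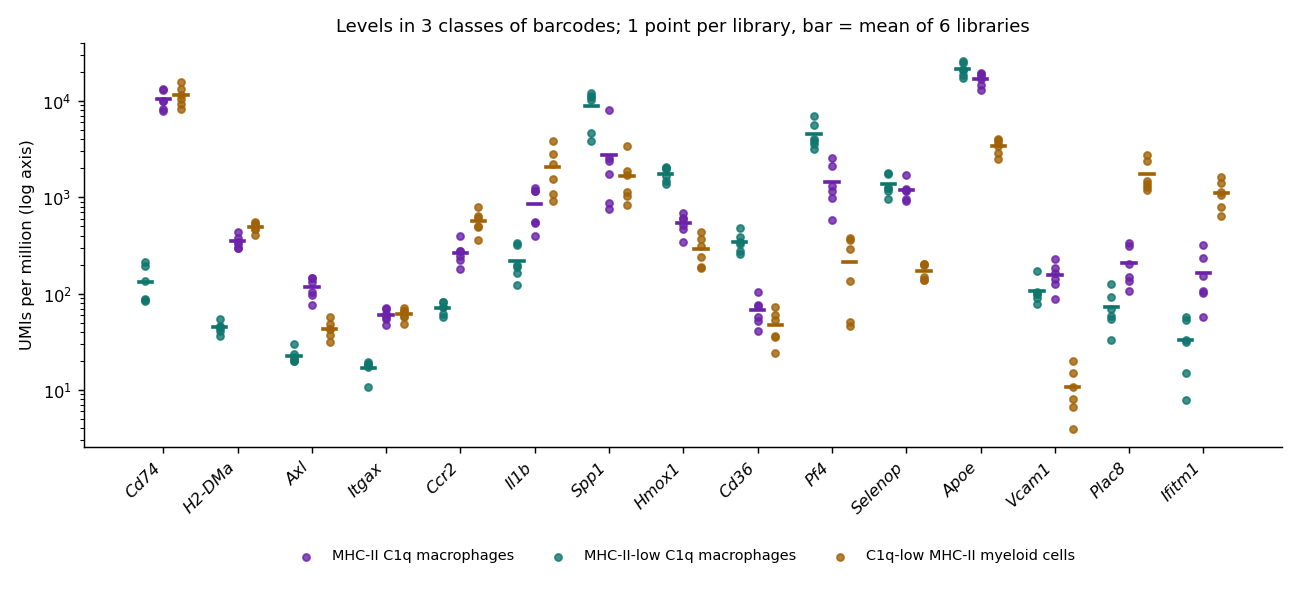
Levels of 15 genes in UMIs per 1000000 (log axis) in MHC-II C1q macrophages, MHC-II-low C1q macrophages and C1q-low MHC-II myeloid cells. Each point is a library and each bar the mean of 6 libraries. By their means, the MHC-II C1q macrophages lie near the C1q-low cells in Cd74, H2-DMa and Itgax, near the MHC-II-low cells in Selenop and Apoe, between both in Ccr2 and Il1b, and above both in Axl.

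The named genes outside the MHC-II set that were higher were Axl, Clec4b1, Plbd1, Ifitm1 and Cxcl9. Axl, a receptor that binds Gas6 on dying cells, was at 19.9 to 30.4 CPM in MHC-II-low cells and 75.7 to 145 CPM in MHC-II C1q macrophages (log2 2.34 ± 0.12, adjusted p 3.97e-10, edgeR). The lectin Clec4b1 (log2 2.60), the lysosomal phospholipase Plbd1 (2.49) and the interferon-induced membrane protein Ifitm1 (2.35) were higher in every library pair. Cxcl9, a chemokine induced by interferon gamma, was at 0.790 to 13.5 CPM in MHC-II-low cells. It is a description, because it passed the filter on low counts only through the MHC-II C1q macrophages. Its level in MHC-II C1q macrophages ran from 5.78 to 277 CPM with a median of 37.7, and the value of 277 CPM came from Nlrp3-/- replicate 2 alone.

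On the lower side, 11 of 13 genes of the lipid-associated list were called, and the 8 named genes included Arg1, Cd36 and Spp1. Arg1, which degrades arginine, was at 190.4 to 355 CPM in MHC-II-low cells and 19.7 to 125 CPM in MHC-II C1q macrophages (log2 -2.51 ± 0.18, adjusted p 2.17e-08, edgeR). The scavenger receptor Cd36 fell from 256 to 484 CPM down to 41.3 to 105 CPM, a log2 difference of -2.36. The matrix protein Spp1, known as osteopontin, had means of 8877 and 2741 CPM (log2 -2.04 ± 0.18), although a single library, Nlrp3-/- replicate 2, reached 8103 CPM in the MHC-II C1q macrophages. The heme oxygenase Hmox1 (log2 -1.71), the chemokine Pf4 (-1.74), the glycoprotein Pdpn (-2.14), the membrane protein Pmp22 (-1.99) and the ubiquitin ligase Rnf128 (-2.63) completed the 8 named genes. In the lipid-associated list none was higher, and Lpl (-0.24) and Fabp4 (-0.49) were not called. The list had a median of -0.64, and the lower members included Trem2 (-0.89), Gpnmb (-1.50) and Fabp5 (-1.04).

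Genes of resident macrophages were lower and those of monocytes were in part higher. Of 9 tested genes of the resident list, 7 were lower and 2 were not called. Folr2, a folate receptor of resident macrophages, had means of 146 and 50.9 CPM (log2 -1.47), and Gas6, a bridge between dying cells and their receptors, had 164 and 66.7 CPM (-1.29), while Selenop (-0.20) did not pass and Mrc1 (-0.21) and Maf (-0.16) fell by little. In the monocyte list, 3 of 9 genes were higher, namely the chemokine receptor Ccr2 (71.6 to 268 CPM, log2 1.88), the surface protein Ly6c2 (1.68) and Plac8 (1.52). Fibronectin, Fn1, was lower (-0.80) and 5 were not called. Of 8 general macrophage genes, 3 were higher and 5 were lower, with a median of -0.38. Their summed level was 13224.5 to 21781 CPM in MHC-II C1q macrophages and 18740 to 29308 CPM in MHC-II-low cells. Cx3cr1, the fractalkine receptor, was higher (log2 1.05). It belongs to a list of synovial lining macrophages, of which 6 genes were tested. Of these, 2 were higher, 2 were lower and 2 were not called, with a median of -0.01. Itgax, which encodes CD11c, was higher (17.1 to 60.0 CPM, log2 1.80).

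All 11 tested genes of the interferon gamma list were higher (median 0.88), among them Cxcl10 (129.8 to 236 CPM, log2 0.88) and Irf1 (0.50), and 9 of 11 of the type I interferon list were higher, with Isg15 at 103 and 186 CPM (0.88). In the interferon gamma list, Irgm1, Igtp and Iigp1 were called under no more than 8 of 14 alternative settings. Cxcl9 of that list passed the filter on low counts only through the MHC-II C1q macrophages. Il1b, the cytokine released through the inflammasome, had means of 221 and 844 CPM (log2 1.90 ± 0.11), and Tnf (0.47), Ccl4 (0.86), Ccl3 (0.41), Ptgs2 (0.93) and Cxcl2 (0.33) were also higher, whereas Cxcl1 (-0.49) and Cxcl3 (-0.69) were lower, so that of 10 inflammatory cytokine genes 6 were higher, 2 were lower and 2 were not called. Of 9 genes of the chemokine list, Cxcl16 (0.22) was higher, Ccl2 (-0.38), Ccl6 (-0.35), Ccl7 (-0.90) and Ccl9 (-0.32) were lower and 4 were not called. Of 12 genes of the cell dissociation response, 11 were higher in the same cells (median 0.35), with Fos at 1091 and 1397 CPM. The part of that response in the inflammatory genes was not tested.

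Of the inflammasome list, Il1b and Nlrp3 (39.7 and 59.9 CPM over all 6 libraries, of which the Nlrp3-/- libraries had none, log2 0.54) were higher and 8 were not called. These were Casp1 (-0.17), Casp4 (-0.01), Pycard (0.03), Gsdmd (0.15), Il18 (0.18), Aim2 (0.18), Nlrc4 (0.43) and P2rx7 (0.25), and Nlrp1b was not tested. Among genes that the study followed, Aif1 (0.48), Fcgr2b (0.34), Zbp1 (0.59), Ptgs2 and Ly6c2 were higher and Gas6, Ninj1 (-0.84), Mrc1 and Arg1 were lower. Gdf3 (0.01), Sulf2 (0.00), Tgfbr2 (-0.05), Ccl8 (-0.04) and Il6 (0.26) did not pass. That list was chosen by the study on these samples. The B cell genes Ighm (log2 2.07) and Cd79b (13.2 and 26.5 CPM) were also higher, and the summed B cell list was 18.3 to 37.5 CPM in the MHC-II-low cells, with Ms4a1 near 0 in both classes. The summed dendritic list was 23.7 to 59.7 CPM in MHC-II C1q macrophages and 3.44 to 5.58 CPM in MHC-II-low cells, without overlap, with Klrd1 at means of 11.6 and 1.27 CPM and Dpp4 at 7.52 and 0.541 CPM. Markers of 2 other cell types that carry MHC-II were higher together with the presentation genes, and their part was not tested. Growth factors moved in both directions, with Igf1 lower (161 to 66.6 CPM, log2 -1.26) and the prostaglandin-degrading enzyme Hpgd (1.18) and the receptor antagonist Il1rn (0.68) higher. Hpgd was at 60.3, 56.3 and 56.3 CPM against 23.0, 25.7 and 24.1 CPM in MHC-II-low cells of the Nlrp3-/- libraries. In the wild-type libraries it was at 2.24, 10.8 and 0 CPM against 1.43, 5.99 and 0 CPM. The efferocytosis and complement list split as well, with 4 of 14 higher, Axl and Itgax among them, and 8 lower, among them Stab1 (-1.15) and C3ar1 (-0.58).

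The second class for comparison held MHC-II without C1q. These C1q-low MHC-II myeloid cells, 1485 barcodes with at most 2 C1q UMIs, at least 10 MHC-II UMIs and at least 1 UMI of Csf1r, had a median depth of 4427 to 5333 UMIs. Cd74 was at 8346 to 15861 CPM in them (median 10954), overlapping with the MHC-II C1q macrophages. In the same test, with Csf1r left out too, 2215 of 8363 genes were called (26.5%), 1069 higher (12.8%) and 1146 lower (13.7%) in the MHC-II C1q macrophages.

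The 8 named genes that were higher included 3 chemokines, Ccl8, Ccl12 and Pf4. Ccl8, a chemokine for monocytes and T cells, was at 1.69 to 23.0 CPM in C1q-low cells and 243 to 822 CPM (median 447) in MHC-II C1q macrophages. Every library of the macrophages lay above every library of the other class. This is a description, because Ccl8 passed the filter on low counts only through the MHC-II C1q macrophages. Folr2 (3.66 and 50.9 CPM) and the Fc receptor-like gene Fcrls (4.75 and 68.2 CPM) are descriptions for the same reason. The adhesion molecule Vcam1 (10.7 and 156 CPM, log2 3.83) and Ccl12 (12.6 and 183 CPM, 3.80) were higher too. Gas6 (3.17), the lysosomal glycoprotein Gpnmb (3.13) and Pf4 (211 and 1454 CPM, 2.94) were next. The scavenger receptor Stab1 (2.52), Mertk (2.34), Apoe (3405 and 16928 CPM, 2.33), Maf (2.00), the mannose receptor Mrc1 (1.95) and Axl (1.39) were higher as well.

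The 8 named genes that were lower included Cd209a and Klrd1 of the dendritic list, Plac8 of the monocyte list and Ctsk of the osteoclast list. Cd209a, a lectin of monocyte-derived dendritic cells, was at 21.2 to 105 CPM in C1q-low cells and 0.896 to 6.10 CPM in MHC-II C1q macrophages, which is a description because it passed the filter on low counts only through the C1q-low class. The lectin-like receptor Klrd1 (149 and 11.6 CPM, log2 -3.66), Plac8 (1742 and 206 CPM, -3.09), Ifitm1 (1116 and 162 CPM, -2.87), Ifitm6 (-2.68), the integrin Itgb7 (-2.35) and the receptor Gpr141 (-2.23) were lower in all library pairs. The osteoclast protease Ctsk had means of 633 and 156 CPM (-2.38 ± 0.32), with 503 CPM in Nlrp3-/- replicate 1 among the MHC-II C1q macrophages.

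All 9 monocyte genes were lower (median -1.67), and 9 of 13 lipid-associated genes were higher. Of 14 resident genes 7 were higher and 5 did not pass the low-count filter, and of 7 general macrophage genes tested 6 were higher and Cd14 (-0.40) was lower, with Csf1r left out because it was used to choose the C1q-low cells. In the dendritic list 4 of 9 genes passed the filter, through the C1q-low class where they are high, and its summed level was 207 to 383 CPM in that class. The summed osteoclast list was 796 to 2359 CPM there. Within the monocyte list, Ly6c2 went from 298 to 94.6 CPM (log2 -1.67) and Ccr2 from 566 to 268 CPM (-1.07). The exceptions in the resident list were Timd4 (30.7 and 3.96 CPM) and F13a1 (-0.72), which were lower. Timd4 is a description, because it passed the filter on low counts through the C1q-low class, where it is high. Of the presentation list, 4 of 15 were higher, namely Lgmn (1.68), Ctsl (1.22), Rfxank (0.77) and Ctss (0.50), and 7 were lower. Of these, H2-Oa (17.1 and 2.48 CPM) and H2-DMb2 (23.9 and 4.72 CPM) passed the filter on low counts through the C1q-low class alone. The others were Ciita (52.8 and 33.1 CPM, -0.68), H2-DMb1 (-0.54), H2-DMa (-0.49), Cd80 (-0.51) and Cd74, which differed by -0.11 and kept its call in 5 of 14 alternative settings. Ifi30 (-0.01), Cd86 (-0.20), Cd40 (0.06) and Rfxap (-0.29) were not called.

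The interferon gamma list did not separate these classes as it did those above. Irf1 was lower (113 and 60.1 CPM, log2 -0.92) and 9 of 10 genes were not called, and in the type I list 4 of 11 were higher, among them Bst2 (0.59). Il1b was lower (2062 and 844 CPM, -1.23 ± 0.08), and so were Il6 (27.8 and 5.25 CPM), Il1a (-1.34), Cxcl3 (-2.14) and Ptgs2 (-0.94), with the 5 others of that list not called. Il6 passed the filter on low counts through the C1q-low class alone. In the same cells 6 of 12 genes of the cell dissociation response were lower, among them Fos (-0.21) and Ier3 (-0.58), 2 were higher and 4 were not called, and their part was not tested. The inflammasome genes divided, with P2rx7 (23.7 and 43.6 CPM, 0.81) and Il18 (0.67) higher and Il1b, Gsdmd (-0.51), Aim2 (-0.48) and Nlrp3 (-0.47) lower. Casp1, Casp4, Pycard and Nlrc4 were not called. Of the genes the study followed, 8 of 14 were higher, among them Aif1 (1.37), Gdf3 (16.5 and 49.7 CPM, 1.54), Ninj1 (0.97) and Tgfbr2 (0.86). Il6, Ptgs2 and Ly6c2 were lower.

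The MHC-II C1q macrophages also varied among themselves. Each cell was thinned to 2000 UMIs and sorted by Folr2, a gene of resident macrophages, and Ccr2, the receptor by which monocytes leave the marrow. Cells with Folr2 and no Ccr2 numbered 23, 35 and 6 in the wild-type libraries and 18, 15 and 41 in the Nlrp3-/- libraries, 3.87% to 7.61% of the thinned cells. Cells with Ccr2 and no Folr2 numbered 76, 182 and 45 in wild type and 91, 85 and 190 in Nlrp3-/-, 23.2% to 41.1%. Both genes were found in 0.391% to 2.21% and neither in 50.7% to 68.5%. In neutrophil barcodes thinned to the same depth, which should lack both genes, the shares were 0.185% to 0.957% for Folr2 and 1.93% to 4.11% for Ccr2. The Ccr2 share was 28.6 ± 5.15% in wild type and 37.3 ± 3.27% in Nlrp3-/- (SD, n = 3 each; two-sided exact permutation test, p = 0.1, the smallest possible), and the Folr2 share did not separate the genotypes (p = 0.2, exact permutation test).

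Between these subgates, 323 of 3911 genes were called (8.26%), 168 higher in Folr2 cells (4.30%) and 155 lower (3.96%), with full counts summed per library, the library as a block, and Folr2, Ccr2 and the genes of the rule left out. Vcam1 was at 10.8 to 36.4 CPM in Ccr2 cells and 177 to 419.8 CPM in Folr2 cells. The ranges did not meet. Gas6 (26.7 and 144 CPM), the carbonyl reductase Cbr2 (17.6 and 95.4 CPM) and the growth factor Igf1 (25.2 and 123 CPM) were also higher in Folr2 cells. So were Gpnmb (46.2 and 242 CPM), Serpinb6a (57.6 and 241 CPM) and Wwp1 (34.7 and 131 CPM), and Ccl8 went from 212 to 1477 CPM. All of these, with Vcam1, passed the filter on low counts only through the Folr2 subgate and are descriptions. The selenium carrier Selenop (684 and 2346 CPM, log2 1.77) was higher as well.

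Ly6c2 was at 35.9 to 330.0 CPM in Ccr2 cells and 0 to 45.9 CPM in Folr2 cells (means 168 and 17.5 CPM), with a narrow overlap of the ranges. By their means, Plac8 (396 and 65.3 CPM), Ms4a4c (298 and 73.1 CPM) and Ass1 (96.4 and 25.1 CPM) were also lower in Folr2 cells. So were Napsa (173 and 50.2 CPM), the receptor Sirpb1c (110 and 35.5 CPM) and Tnfsf9 (94.97 and 41.2 CPM). All of these, with Ly6c2, passed the filter on low counts only through the Ccr2 subgate and are descriptions. Il1b (1184 and 349 CPM, log2 -1.63 ± 0.15) was lower in Folr2 cells as well. Both subgates had passed the same MHC-II minimum, which is a count of UMIs and does not make their levels equal. H2-Aa of the rule was at means of 6306 and 3176 CPM in Ccr2 and Folr2 cells. Median depth per library was 4471.5 to 6415 UMIs in Ccr2 cells and 5002 to 8829.5 UMIs in Folr2 cells, and its part was not tested. Cd74 (12950.4 and 6604 CPM, -0.99), H2-DMa (-0.96) and H2-DMb1 (-1.01) were higher in the Ccr2 cells. Ciita was higher there too (49.4 and 20.1 CPM), a description because it passed the filter on low counts only through the Ccr2 cells. Lgmn (0.74) and Ctsl (0.77) were higher in the Folr2 cells, and the other 5 of 11 tested genes of the presentation list, Rfxap (-0.32), Ctss (0.07), Ifi30 (-0.19), Cd86 (-0.14) and Cd40 (-0.37), were not called. Fn1 (-1.33) and Cx3cr1 (-1.09) were lower in the Folr2 cells. So were Ptgs2 (180 and 50.7 CPM) and Itgax (62.2 and 29.7 CPM), which are descriptions for the same reason as Ciita.

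By lists, 6 of 7 resident genes, 9 of 12 lipid-associated genes and 6 of 12 efferocytosis and complement genes were higher in Folr2 cells. Of the 5 monocyte genes tested, 4 were lower and Hp (-1.05) was not called. Of 4 tested genes of the synovial lining list, 1 was higher, 2 were lower and 1 was not called. Inflammatory cytokines were lower in 3 of 7 cases and the type I interferon genes were not called (0 of 4). Of 12 genes of the cell dissociation response, Fos (-0.39), Ier3 (-0.69) and Zfp36 (-0.58) were lower too and none was higher, and their part was not tested. Il18 was higher in Folr2 cells (50.8 and 113 CPM), a description because it passed the filter on low counts only through them. Casp1, Casp4, Pycard, Gsdmd, Aim2 and P2rx7 were not called. Of the genes the study followed, Gas6, Ccl8, Mrc1 (0.89) and Ninj1 (1.22) were higher and Ptgs2 and Ly6c2 lower. Wild-type replicate 3 gave 6 Folr2 cells only, and without wild-type replicate 2 the number of calls was 197.

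**Figure D3:**
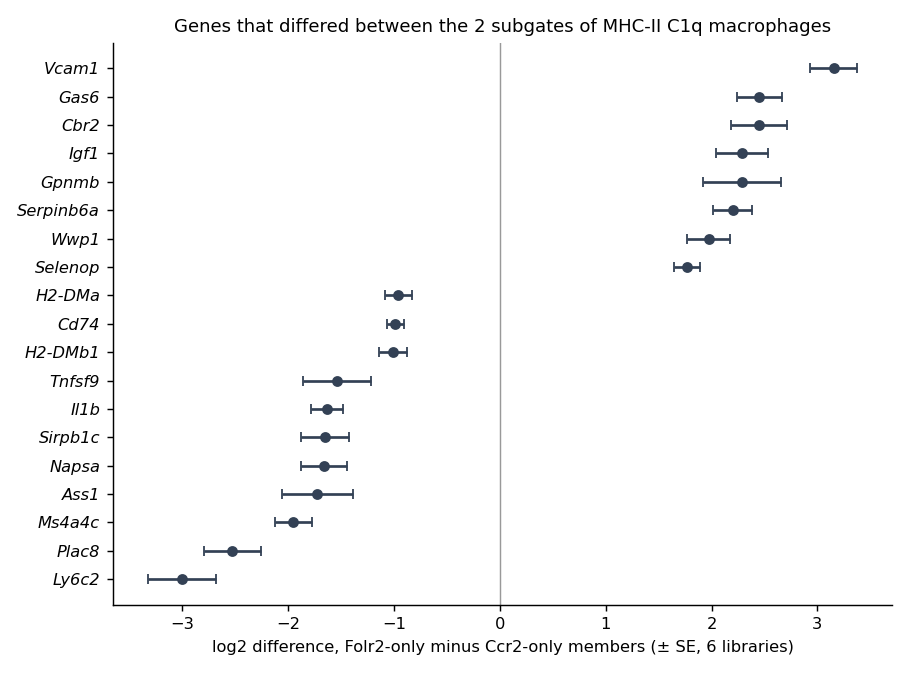
Log2 differences (Folr2 minus Ccr2 subgate, with SE, 6 libraries, edgeR) of the 16 named genes and of Cd74, H2-DMa and H2-DMb1 within the MHC-II C1q macrophages. Vcam1, at 3.15, is the highest value drawn, and the 3 genes of the MHC-II pathway lie near -0.99 on the side of the Ccr2 cells. Named genes other than Selenop and Il1b passed the filter on low counts only through the subgate where they are higher, and their values are descriptions.

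The comparison of genotypes asks what differed within these cells between the wild-type and Nlrp3-/- libraries. Nlrp3 RNA was 77.5, 108 and 174 CPM in the wild-type libraries, from 713 UMIs in all, and 0 in each of the 3 Nlrp3-/- libraries (a count of 0 allows up to 3 UMIs per library), as the titles say. Xist, the RNA of the inactive X chromosome, was 0 in wild type and 899 ± 84.6 CPM in Nlrp3-/- (SD, n = 3), and the Y-linked Ddx3y and Eif2s3y were 0 in every Nlrp3-/- library. Sex and genotype therefore cannot be told apart in any difference between genotypes, including the shares and the mitochondrial percentages above. The same holds for the supplier of the mice, which differed between genotypes by the study's methods.

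Few genes passed the test. Of 8930 genes tested with edgeR on summed counts, 36 were called (0.403%), 14 higher in Nlrp3-/- (0.157%) and 22 lower (0.246%), while 1438 had an unadjusted p under 0.05. The 36 comprised 4 X-linked genes, 4 Y-linked genes, 6 genes of chromosome 11 at most 20 Mb away from Nlrp3 or Nlrp3 itself (of 282 tested there), and 22 genes elsewhere. The number of calls was 12 without Nlrp3-/- replicate 3 and 909 without wild-type replicate 3, and single genes are named with this limit.

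After Xist, the named genes with the largest log2 increases in Nlrp3-/- were Hpgd and Gdf3. Hpgd, an enzyme that inactivates prostaglandins and acts on other lipid mediators, was at 2.24, 10.8 and 0 CPM in the wild-type libraries and 60.3, 56.3 and 56.3 CPM in the Nlrp3-/- libraries. All 3 knockout libraries lay above all wild-type libraries. This is a description, because Hpgd passed the filter on low counts only through the Nlrp3-/- libraries. Gdf3, a growth factor of the TGF-beta family, was at 8.51, 18.7 and 0 CPM in wild type and 109.7, 62.4 and 98.7 CPM in Nlrp3-/-. It is a description for the same reason. Anxa6, a membrane-binding annexin on chromosome 11 within 20 Mb of Nlrp3, was at 47.9, 40.3 and 45.6 CPM against 83.4, 92.9 and 95.4 CPM (0.92 ± 0.15). Gcsh, of the glycine cleavage system, was at 25.5, 23.6 and 38.1 CPM against 61.6, 54.9 and 62.5 CPM (0.99 ± 0.18). Anxa6 kept its call in 8 and Gcsh in 7 of 14 alternative settings.

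On the lower side, Tpm3-rs7, a sequence related to tropomyosin whose reads may be shared with Tpm3, was at 192, 96.0 and 219 CPM in wild type and 1.93, 1.36 and 1.67 CPM in Nlrp3-/-. This is a description, because Tpm3-rs7 passed the filter on low counts only through the wild-type libraries. Retnlg, a resistin-like gene of neutrophils, was at 62.3, 61.3 and 83.7 CPM against 13.5, 14.9 and 18.1 CPM (-2.19). In barcodes of at most 100 UMIs, which hold free RNA, Retnlg was at 1347 to 2627 CPM in wild type and 368 to 658 CPM in Nlrp3-/-, and the part of free RNA in the difference was not tested. The transcription factor Jdp2 was at 184, 142 and 117 CPM against 80.2, 66.4 and 55.8 CPM (-1.26 ± 0.22, adjusted p 0.0414, edgeR). Plac8 was at 313, 333 and 201 CPM against 107, 151 and 134 CPM (-1.24 ± 0.22), and its call held in 7 of 15 settings and that of Jdp2 in 8 of 15, the fifteenth being DESeq2, which gave no adjusted p for the genes counted over 14 between genotypes. H2-Q7, a nonclassical class I gene, was at 130.3, 115 and 103 CPM against 35.9, 71.9 and 51.9 CPM (-1.25 ± 0.22). H2-Q6, its near copy, was lower too (-1.78), and reads of the pair may be split between them.

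**Figure D4:**
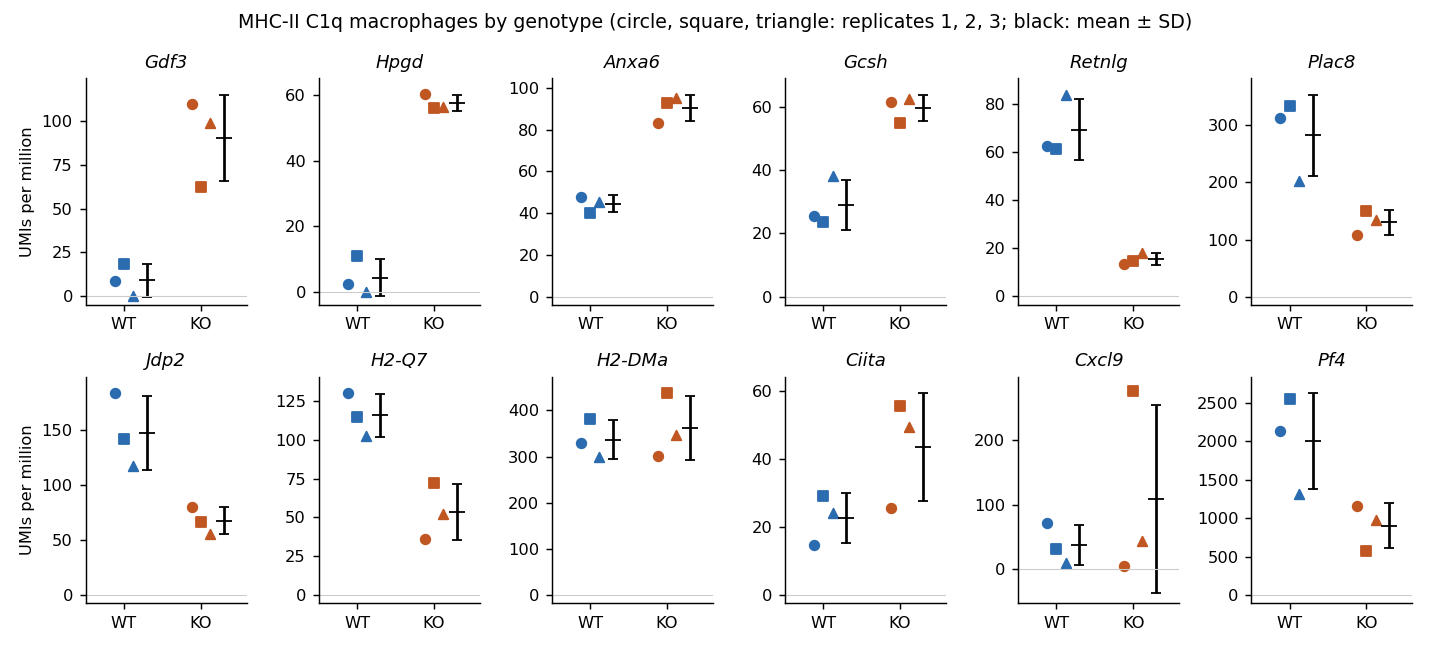
Levels of 12 genes in UMIs per 1000000 in MHC-II C1q macrophages of wild-type (WT) and Nlrp3-/- (KO) libraries. Circles, squares and triangles are replicates 1, 2 and 3, and black marks show the mean ± SD of 3 libraries. Gdf3, Hpgd, Anxa6 and Gcsh are higher and Retnlg, Plac8, Jdp2 and H2-Q7 lower in all 3 KO libraries, H2-DMa and Ciita were not called, Cxcl9 stands at 277 in 1 KO library, and Pf4 (adjusted p 0.108, edgeR) was not called.

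No gene of MHC-II presentation passed between genotypes. All 14 tested genes of that list were not called, with a median log2 difference of -0.06 against 0.01 over all genes. Only 0.403% of all genes were called, so an absence of calls among 14 genes says little about the list. Over the alternative settings, genes of the presentation, inflammasome and study lists that were not called here gained a call 24 times in all. Cd74 had means of 11534 and 9329.6 CPM (log2 -0.42, adjusted p 0.372, edgeR), Ciita 22.7 and 43.5 CPM (0.83, adjusted p 0.209, edgeR), H2-DMa 337 and 362 CPM and Ifi30 1552 and 1400.4 CPM. The other tested genes were H2-DMb1 (-0.08), H2-DMb2 (0.20), Rfxap (-0.17), Rfxank (-0.21), Ctss (0.15), Lgmn (0.02), Ctsl (0.42), Cd80 (-0.11), Cd86 (-0.26) and Cd40 (-0.04). Among the inflammasome genes, Nlrp3 alone was called of 10. Il1b was 705 CPM in wild type and 983 CPM in Nlrp3-/- on average (0.43, adjusted p 0.573, edgeR), and Casp1 (-0.22), Casp4 (-0.28), Pycard (-0.02), Gsdmd (-0.50), Il18 (-0.21), Aim2 (0.54), Nlrc4 (0.55) and P2rx7 (0.50) were not called.

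Besides Plac8, the monocyte list gene Chil3 (a chitinase-like protein) was lower, at 65.4, 30.8 and 45.6 CPM in wild type and 5.78, 6.10 and 4.18 CPM in Nlrp3-/-, without overlap. This is a description, because Chil3 passed the filter on low counts only through the wild-type libraries. Its free-RNA level was 309.5 to 832 CPM in wild type and 80.2 to 168 CPM in Nlrp3-/-. The summed neutrophil list, which holds S100a8 and S100a9 of the rule, was also lower without overlap, at 1679, 1154 and 1063 CPM in wild type and 727, 686 and 906 CPM in Nlrp3-/-. Of its other genes Retnlg was called, while Lcn2 (log2 -0.03), Csf3r (-0.11) and Ngp (-0.45) were not, and the part of neutrophil RNA in these differences was not tested. Ly6c2 (-1.59) had an adjusted p of 0.0508 in edgeR's test and Ccr2 (0.44) was not called, so 2 of 9 were lower and 7 not called. Of the genes the study followed, Gdf3 was called, given above as a description, and the 12 others that were tested and not limited by the rule were not, among them Gas6 (51.2 and 82.3 CPM, 0.61), Aif1 (991 and 536 CPM, adjusted p 0.0786, edgeR), Sulf2 (0.61), Fcgr2b (0.40), Tgfbr2 (0.50), Ninj1 (-0.40), Zbp1 (-0.71), Ccl8 (-0.25), Mrc1 (0.13), Arg1 (0.23) and Ptgs2 (0.52). That list was chosen by the study on these samples. No gene was called in the resident, lipid-associated, interferon, cytokine, chemokine, efferocytosis or general macrophage lists, beside 0.403% of all genes. Spp1 had means of 1132 and 4351 CPM (1.87, adjusted p 0.108, edgeR), with 8103 CPM in Nlrp3-/- replicate 2.

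Whether a genotype difference was particular to the MHC-II C1q macrophages was tested as an interaction with the MHC-II-low C1q macrophages, with the library as a block. Of 10575 genes, 2 were called (0.0189%). Fabp4, a fatty acid binding protein, was at 143, 129.8 and 83.7 CPM in wild-type and 456, 187 and 398 CPM in Nlrp3-/- MHC-II C1q macrophages, without overlap. In the MHC-II-low cells of the same libraries it was at 252, 363 and 307 CPM and at 424, 133 and 353 CPM, which overlapped. The interaction was 1.57 ± 0.18 on the log2 scale (adjusted p 0.00113, edgeR). With the barcodes of the highest doublet scores removed it was 0.30 (adjusted p 0.954, edgeR). Cxcl2, a neutrophil chemokine, was at 2860.4, 2663 and 3079 CPM against 3555, 1669 and 2340.4 CPM in the MHC-II C1q macrophages, which overlapped, and at 2579, 2802 and 2778 CPM against 2316, 1145 and 1569.8 CPM in the MHC-II-low cells, which did not. Its interaction was 0.51 ± 0.07 (adjusted p 0.0111, edgeR). Without wild-type replicate 2 the interactions were 1.49 and 0.43, and neither passed (adjusted p 0.114 each, edgeR). The interaction of Gdf3 was -0.18 and that of Hpgd 0.43, both not called, and both genes were higher in the Nlrp3-/- libraries of MHC-II-low cells too, Gdf3 at 85.6, 88.9 and 99.9 CPM against 5.94, 16.0 and 3.90 CPM.

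**Figure D5:**
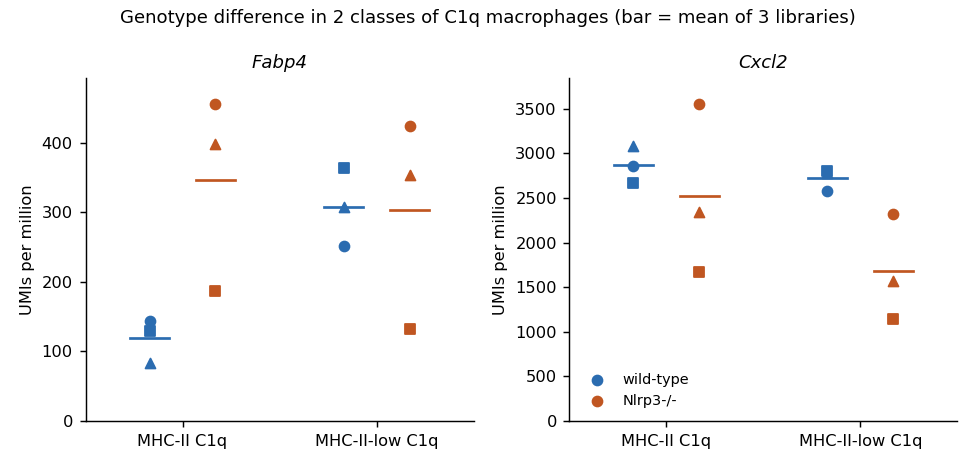
Levels of Fabp4 and Cxcl2 in UMIs per 1000000 in MHC-II C1q and MHC-II-low C1q macrophages of each library (circle, square and triangle for replicates 1, 2 and 3, bars for means of 3 libraries). Fabp4 separates the genotypes in the MHC-II C1q macrophages and overlaps in the MHC-II-low cells, and Cxcl2 does the opposite.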

How the data were processed

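Single-cell RNA of the injured enthesis was measured in 6 libraries, grouped by their titles. The authors deposited raw UMI counts per gene and barcode for each library, with no normalization. The matrix headers name Cell Ranger 4 and the submitters' processing notes Cell Ranger 2.1.1 and mm10, and which version made the counts was not resolved. Positions are from GENCODE vM21 (GRCm38), which held 32235 of the 32285 gene identifiers. Cells were chosen by the counts given above. The members, lists and thresholds were chosen with earlier results of these data known. No authors' cell labels were used.

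Counts were summed per library and class and tested with edgeR 4.0.16 (TMM, filterByExpr, glmQLFit and glmQLFTest, Benjamini-Hochberg threshold 0.05) in R 4.3.3. The SE of a log2 difference is its absolute value divided by the square root of the quasi-likelihood F statistic. DESeq2 1.42.0 was an alternative. CPM are counts per 1000000 UMIs of the class in a library, and intervals and limits of 0 (3 UMIs) cover counting error only. Shares were compared with two-sided exact permutation tests (scipy 1.17.1). Doublets were not removed in the main results. As an alternative, the highest Scrublet scores (scanpy 1.11.5) were removed at 0.8% per 1000 barcodes, which took out 138 of the macrophages. The scripts were tested on simulated data. Named genes were up to 8 higher and 8 lower genes by log2 difference among calls with at least 50 CPM in the higher class and the same direction in every library pair, leaving out predicted and ribosomal genes, plus the presentation, inflammasome and study lists and the leading genes of each list. The other genes named from lists were chosen after their values were seen. Settings were changed singly: size factors, the filter on low counts, the UMI minimums of 5 and 20, barcodes of at least 2000 UMIs, doublet scores, each library left out, and, for the genotype and (chosen after seeing the data) the interaction, the replicate number as a block. One alternative changed 3 choices together: barcodes were thinned to 2000 UMIs, shallower ones were left out, and the C1q and MHC-II minimums were 3 UMIs, with 0 MHC-II or C1q UMIs in the low classes.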

Additional observations from a re-analysis of the deposited data

Results flagged for a closer look

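For 2 genes the difference between genotypes was not the same in the MHC-II C1q macrophages as in the MHC-II-low C1q macrophages, by the interaction term of edgeR's quasi-likelihood test. Fabp4 had an interaction of 1.57 on the log2 scale (adjusted p 0.00113), which was called under 12 of 15 alternative settings, and Cxcl2 one of 0.51 (adjusted p 0.0111), also called under 12 of 15. Fabp4 lost its call without wild-type replicate 2 (1.49, adjusted p 0.114), with the rule applied to barcodes thinned to 2000 UMIs, which also lowered its minimums to 3 UMIs and left out shallower barcodes (1.21, adjusted p 0.115), and with high doublet scores removed (0.30, adjusted p 0.954). Cxcl2 lost its call in the same 3 settings with interactions of 0.43, 0.37 and 0.54 (adjusted p 0.114, 0.607 and 0.0598). Groups of 3 libraries are too small for a test of single outlying libraries.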

How the results depend on the processing

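The number of genes called between genotypes depended on the setting: 36 became 625 without a filter on low counts, 127 with DESeq2 (20 higher and 107 lower), 19 with the replicate number as a block, and 12 to 909 with 1 library left out. It was 15, 19 and 909 without wild-type replicates 1, 2 and 3, the last with 330 higher and 579 lower, and 31, 23 and 12 without Nlrp3-/- replicates 1, 2 and 3. The replicate numbers did not pair the libraries: deviations of same-numbered libraries correlated at -0.0998, -0.0381 and -0.0735. With the replicate number by class as a block, an alternative chosen after seeing the data, the interaction gave 12 genes, with Fabp4 at 1.61 and Cxcl2 at 0.51 still called. DESeq2 called 1600 genes against MHC-II-low and 1347 against C1q-low cells, and with 1 library left out edgeR called 2156 to 2593 and 1790 to 2026. The interaction gave 86 genes without a filter, 6 with sums of at least 20 UMIs, 0 with the thinned rule, 1 with high doublet scores removed and 0 to 23 with 1 library left out (23 without Nlrp3-/- replicate 1, 10 without Nlrp3-/- replicate 3, 0 without wild-type replicate 2). The subgates gave 537 without a filter and 197 to 322 with 1 library left out (197 without wild-type replicate 2). The log2 ratio of shares ran from -0.76 to 0.17. The causes were not tested. Among the named genes no direction reversed where one was called. Sex and the supplier of the mice were tied to genotype, and the mice were pooled.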

Other observations

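Several levels in the MHC-II C1q macrophages belonged to single libraries of the Nlrp3-/- group. Nlrp3-/- replicate 1 held 503 CPM of Ctsk, 331 CPM of Cxcl3 and 36.6 CPM of Nos2. Nlrp3-/- replicate 2 held 277 CPM of Cxcl9, 143 CPM of Gbp2 and 95.6 CPM of Dcn. Nlrp3-/- replicate 3 held 408 CPM of Hbb-bs.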
